A study of Rattus norvegicus with 3 samples.

Results

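Agtrap encodes the angiotensin II receptor-associated protein, and its locus on rat chromosome 5 was examined in MBD-seq data of newborn liver through the listed regions that overlap 164650000 to 165650000 of the rn4 assembly. The members were chosen by position, around an intronic Agtrap region that the study had singled out from these same data. Its own scores are therefore a description and were not tested. The 3 deposited lists together hold 95306 regions, of which 62 lie in the interval, at 51 distinct places. Of these, 22 are in the list for MLP over C (MLP vs. C), 32 in that for MLP over MLP-F and 8 in that for MLP-F over C.

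The samples were livers of male Wistar rats aged 1 day, grouped by the diet of the dam: low protein (MLP), low protein with folate (MLP-F) and a normal diet (C). Each group was 1 library of pooled DNA, from 6 animals by the sample labels and from more by the study's text, and the animals of a group came from 1 litter. Litter and diet cannot be told apart, the MBD-seq libraries have no replicate, and no group had the normal diet with added folate. The files hold no liver marker that could be checked against the tissue label. Read depth is not in the files, and by the study's read totals MLP was sequenced most deeply and C least. Each region carries a score from the peak caller MACS, its −log10 p for the first library over the second multiplied by 10. The lowest score in each list is 50, a p of 1e-05.

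In MBD-seq, sheared DNA is captured by a methyl-CpG binding domain, so a region with more reads in a library held a larger share of the captured, methylated fragments there. The protein encoded by Agtrap binds the tail of the type 1 angiotensin II receptor, promotes its uptake from the cell surface and dampens its signalling. In this way it opposes a hormone that raises blood pressure. The liver is the main source of angiotensinogen, the precursor of angiotensin.

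The deposited lists name no gene. The name Agtrap and its place in an intron come from the annotation that the study made on rn4, which names a gene for 1 of the 22 MLP vs. C members and for 0 of the 32 MLP vs. MLP-F members. That annotation covers only regions within the study's cut-off on the false discovery rate, a stricter selection than the deposited lists. For MLP-F vs. C the study reports no differentially methylated region. A member without a name may therefore simply fall outside that selection. In the RefSeq gene order of a later assembly (GRCr8), the protein-coding genes before Agtrap include Zfp933, Miip, Mfn2 (a protein of mitochondrial fusion), Plod1 (a lysyl hydroxylase of collagen), 2510039O18Rikl, Nppb and Nppa (natriuretic peptides of the heart), Clcn6 (a chloride transporter of endosomes) and C5h1orf167. Those after it include Draxin (an axon guidance protein), Mad2l2 (a subunit of a DNA repair polymerase), Fbxo6, Fbxo44 and Fbxo2 (F-box proteins of ubiquitin ligases), Disp3, Mtor (the kinase that couples nutrients to growth), Angptl7 and Exosc10 (a subunit of the RNA exosome). Which of these genes a listed region other than that of Agtrap falls in was not determined, because no rn4 gene annotation was used.

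The sequences that define the assay of the Agtrap region are the primers that the study designed for its bisulphite PCR, shown because they mark which stretch of the intron was taken up individually. Both are written 5′ to 3′ in lower case, and they read DNA in which unmethylated C has been converted to T.
Agtrap forward primer: tttggtttgtttgtttagaaag
Agtrap reverse primer: ctaaaacccttctcctactac
The forward primer, of 22 bases, holds 0 C and the reverse primer, of 21 bases, holds 0 G, so neither contains a CG. With this assay the study sequenced clones from individual livers and reports a significant difference between C and MLP, in the direction of its MBD-seq data. Those clone data were not analysed here. The rn4 sequence of the region itself was not used here.

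The Agtrap promoter is shown as context for a method that reads methylated CpG. It is given from RefSeq as GRCr8 chr5:163802125-163802424 on the minus strand, 250 bases before to 50 after the start, with each CG in capitals.
Agtrap promoter: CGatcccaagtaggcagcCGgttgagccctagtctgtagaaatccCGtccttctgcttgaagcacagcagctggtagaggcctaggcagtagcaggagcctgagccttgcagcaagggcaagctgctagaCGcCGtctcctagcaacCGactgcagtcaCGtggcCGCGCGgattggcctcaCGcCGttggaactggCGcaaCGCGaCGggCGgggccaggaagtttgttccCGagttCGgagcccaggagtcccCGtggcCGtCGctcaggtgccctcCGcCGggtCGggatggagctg
These 300 bases hold 25 CG, a motif that reads the same on both strands, and 16.6% of 33469 RefSeq promoter windows of this length hold as many or more (median 7). Among 18 windows of 15 of the 20 neighbouring genes the number runs between 4 and 40, with a median of 18, and 3 windows, of Draxin, Fbxo2 and Disp3, reach that of Agtrap. GRCr8 positions cannot be set against the rn4 positions of the listed regions, so no region is placed at or away from this window.

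The Agtrap region spans 962 bp, 165156757 to 165157718, and is in both MLP lists, over C and over MLP-F, with the same start and end. Its score was 123 against C and 101 against MLP-F, and nothing in the MLP-F vs. C list overlaps it. In the MLP vs. C list 20.3% of all regions score as high or higher, which puts it at place 7305 of 35998 and at place 3 among the 22 members. Against MLP-F the share is 36.0%, place 12143 of 33730 and place 8 of the 32 members. The region is therefore in the upper part of both lists without being near the top of either. Each score belongs to its own pair of libraries and depends on the depth of both, so the difference between 123 and 101 is not a measurement of C against MLP-F.

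In the 2 MLP lists the nearest region on the lower-coordinate side is the same, 165146142 to 165146827, which ends 9929 bp away, with scores of 69.5 (C) and 52.9 (MLP-F). On the other side the nearest MLP vs. MLP-F region begins 20.6 kb away (165178350 to 165178695, score 94.6) and the nearest MLP vs. C region 54.1 kb away (165211811 to 165212466, score 91.5). The nearest MLP-F vs. C regions lie 90.2 kb away on the lower side (165065483 to 165066587, score 183) and 31.5 kb away on the higher side (165189252 to 165189719, score 59.0). The Agtrap region is thus one of a pair in both MLP lists, with no MLP-F vs. C region within that distance. Against MLP-F the partner is close to the lowest score of 50. Other pairs are closer, spanning 2.8 kb in MLP vs. C and 5.4 kb in MLP vs. MLP-F, against 11.6 kb here. The MLP-F vs. C members are sparse, with a median gap of 85100 bp, so the absence of one nearby is not particular to Agtrap.

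**Figure D1:**
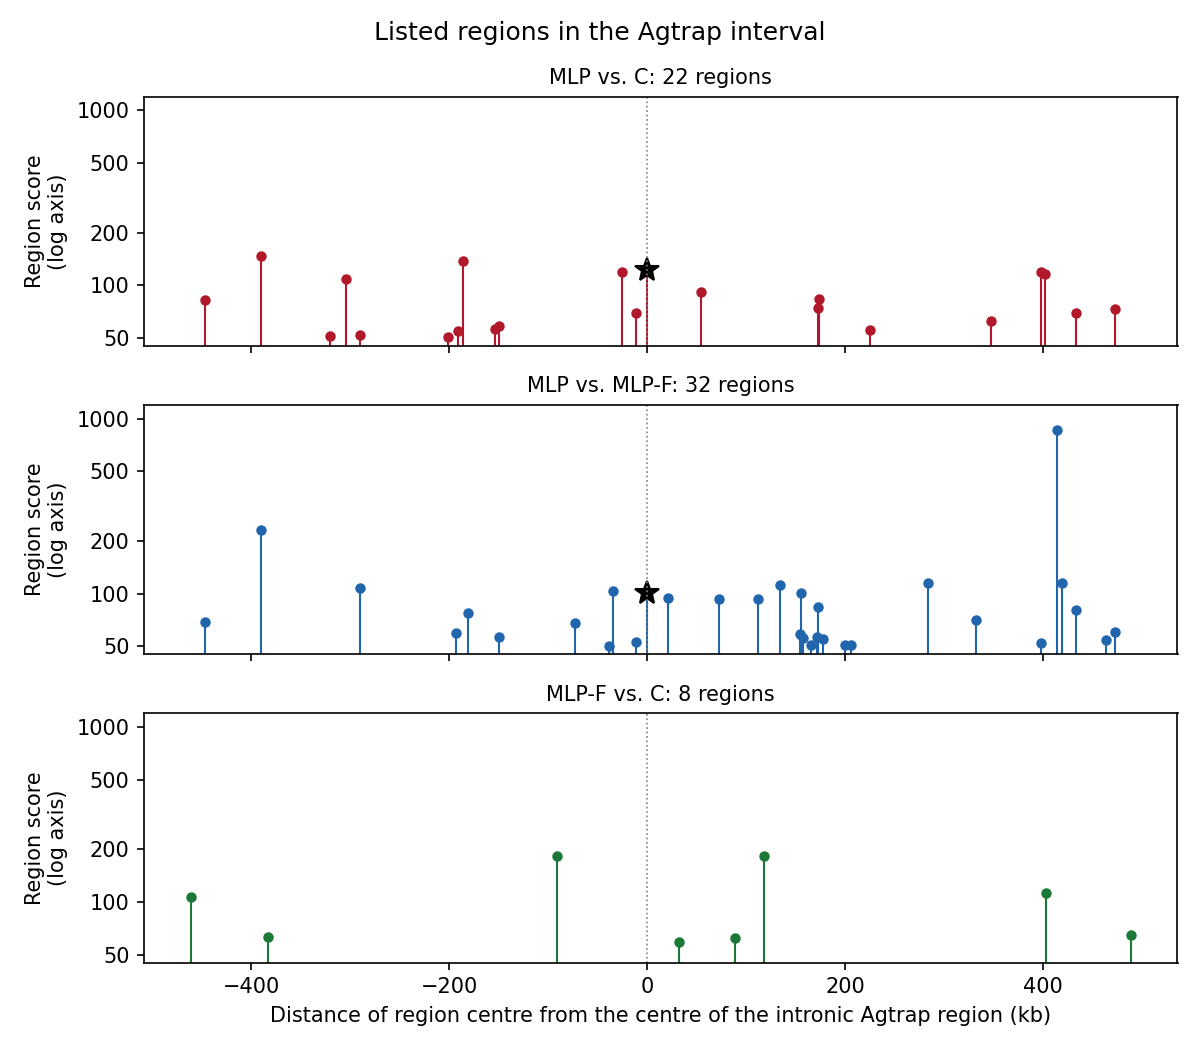
Score of each listed region (log axis, with a thin line down to the axis to mark its position) against the distance of its centre from that of the Agtrap region in kb, for the 22 MLP vs. C, 32 MLP vs. MLP-F and 8 MLP-F vs. C regions; the star is the Agtrap region. The star is at 123 in the first panel and 101 in the second and has no counterpart in the third, and the highest point, 867, is an MLP vs. MLP-F region.

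Presence in a second list was described and not tested, because the 3 comparisons share their libraries. Of the 22 MLP vs. C members, 10 are also in the MLP vs. MLP-F list (45.5%, 95% Wilson interval 26.9 to 65.3%, which covers counting error only), against 39.4% of the whole list. Only 1 of the 22 overlaps an MLP-F vs. C region (4.55%, interval 0.807 to 21.8%), against 22.6% of the whole list. Among the MLP vs. C regions of chromosome 5 that share was 20.2%. Neighbouring regions from shared libraries are not independent draws, so the Wilson intervals are no test of a share against its background. The share listed against MLP-F is near its background, and that listed for MLP-F vs. C is below it. The second share rests on 1 region and on the width of the interval, since in 2 Mb around the same centre it was 19.6% (10 of 51). Of the 32 MLP vs. MLP-F members, 10 are in the MLP vs. C list (31.2%, interval 18 to 48.6%), against 42.1% of the whole list, and 0 overlap an MLP-F vs. C region, against 1.27%. Of the 8 MLP-F vs. C members, 1 overlaps an MLP vs. C region (12.5%, interval 2.24 to 47.1%; 31.8% of the whole list) and 0 overlap an MLP vs. MLP-F region (1.67% of the whole list). No place in the interval is in all 3 lists. By place, 10 are higher in MLP than in either other library, 1 is higher in both MLP and MLP-F than in C, 11 are listed for MLP vs. C alone, 22 for MLP vs. MLP-F alone and 7 for MLP-F vs. C alone. A place that is not in a list may still differ between the libraries, below the cut-off.

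At the 10 places higher in MLP than in both C and MLP-F, the boundaries in the 2 lists were identical, as they are at all 14194 such places of the whole lists. The first on the lower side, 164709880 to 164711100, had 82.6 over C and 68.9 over MLP-F. The next, 164766759 to 164767533, had the highest score of any MLP vs. C member, 146, and scored 231 against MLP-F. The region at 164866716 to 164867554 had 52.1 over C and 107 over MLP-F, the reverse of the order at Agtrap. A 495-bp region at 165007218 to 165007712 was near the lowest score in both lists, with 58.9 and 56.7. The pair formed by 165146142 to 165146827 and the Agtrap region comes next along the chromosome.

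On the higher-coordinate side of Agtrap, 165329130 to 165329812 scored 74.4 (C) and 84.2 (MLP-F), and 165590052 to 165591436, the longest of the 10 at 1385 bp, scored 69.8 and 80.5 in the same order. The region at 165629615 to 165630166 scored 73.4 against C and 60.6 against MLP-F. At 165554766 to 165555536 the score against C was 119 and that against MLP-F 52.3, the widest gap in this direction. At 6 of the 10 places, Agtrap among them, the score was higher against C, and at 4 it was higher against MLP-F. Over the whole lists it was higher against C at 45.8% of shared places.

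**Figure D2:**
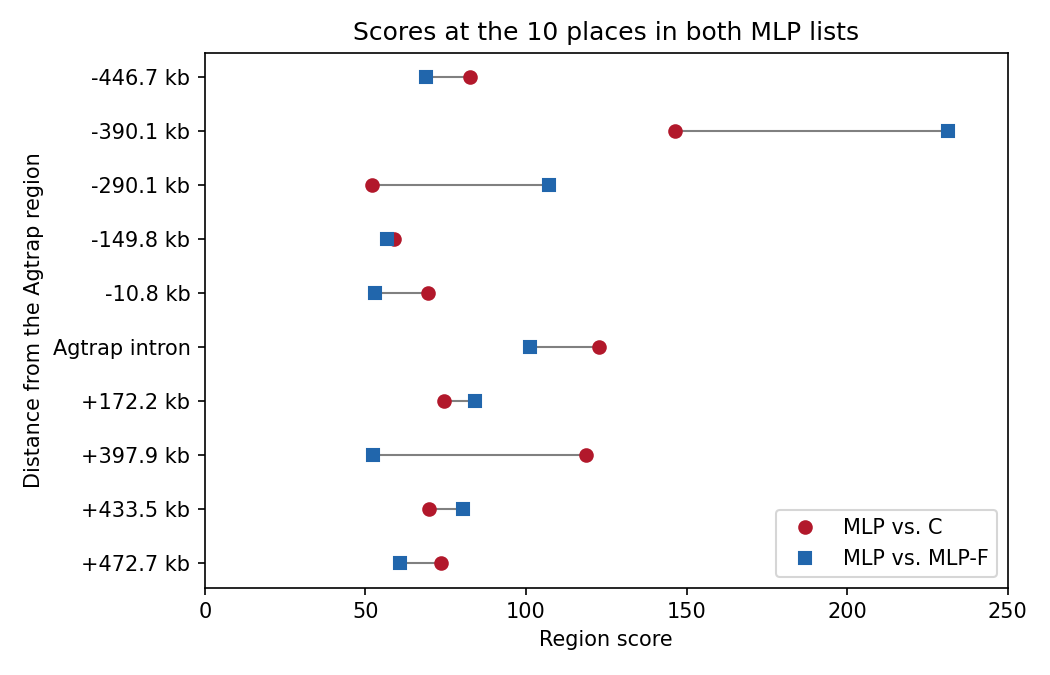
Score against C (red circles) and against MLP-F (blue squares) at the 10 places listed in both MLP comparisons, in order along the chromosome, with the distance from the Agtrap region in kb. Scores run between 52.1 and 146 against C and between 52.3 and 231 against MLP-F, and the order of the 2 points changes from place to place.

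Among the 11 MLP vs. C regions in that list alone, scores ran between 50.6 and 138, with a median of 62.3. The highest, 164970594 to 164971561, scored 138 and stands above Agtrap in the list. It closes a run of 3 MLP vs. C regions within 15.7 kb, of which the others scored 50.6 and 54.8. A 1395-bp region at 165131133 to 165132527, the longest MLP vs. C member, scored 119.7 and lies on the lower side of the Agtrap pair. Between it and 165007712 is the longest stretch of the interval without an MLP vs. C region, 123420 bp. Another of these regions, 164852733 to 164853901, scored 108, while 5 of the 11 scored under 60. The study's annotation names a gene for the member at place 3 by score and for neither of the 2 above it, at 146 and 138. The study made that selection by false discovery rate, not by place in this score order.

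The single place higher in both MLP and MLP-F than in C lies toward the end of the interval. It was listed as 165559205 to 165560045 with a score of 116 in MLP vs. C and as 165559376 to 165560215 with a score of 112 in MLP-F vs. C, and the 2 regions share 670 bp. In the MLP vs. C list it shares a stretch of 5.3 kb with the region at 165554766, which was listed against both C and MLP-F. Neighbouring places a few kb apart therefore showed different patterns over the 3 lists.

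The 22 regions in the MLP vs. MLP-F list alone make up most of that list's members, with scores between 50.3 and 867 and a median of 69.6. Over the whole MLP vs. MLP-F list, 42.1% of regions overlap an MLP vs. C region and 1.27% an MLP-F vs. C region. Most regions of the whole list are therefore likewise in neither other list, and the majority here is not particular to the interval. The region at 165570694 to 165572409 had the score of 867, the longest length of any member, 1716 bp, and place 103 of 33730 in its list, which is place 4 on chromosome 5. Its score was 3.75 times that of the next member (231). The nearest MLP vs. C region ends 10648 bp before it. A region at 165575766 to 165576444, within the same 5.8 kb, scored 115 against MLP-F and is likewise not in the MLP vs. C list. Those at 165441104 to 165441613 and 165291151 to 165292723 scored 114 and 112.

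MLP vs. MLP-F members were crowded on the higher side of Agtrap, with 21 there and 10 on the lower side, while MLP vs. C members numbered 9 on the higher side and 12 on the lower. Between 165250000 and 165350000 there were 9 MLP vs. MLP-F regions, 2 MLP vs. C regions and 1 MLP-F vs. C region. Within this stretch 7 MLP vs. MLP-F regions lie in 24.3 kb (165311331 to 165335619), with scores between 51.0 and 100.2. Of the 7, only that at 165329130 overlaps an MLP vs. C region, and an MLP vs. C region at 165330772 to 165331908 (score 83.4) falls between 2 of them. Most members of the run have low scores, so the count there rests on regions close to the cut-off of the list.

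Among the 8 MLP-F vs. C members, the 2 highest were 165275097 to 165276213 (score 184) and 165065483 to 165066587 (score 183), at places 761 and 768 of 25578. They lie on either side of Agtrap and neither is in the MLP vs. C list. The region shared with MLP vs. C followed with 112, and the outermost on the lower side, 164695942 to 164696260, with 106. The other 4 scored between 59.0 and 64.5, the highest of them at 165645316 to 165646247. The longest stretch between MLP-F vs. C members, 291018 bp, lies on the lower side of Agtrap, from 164774464 to 165065483.

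Set beside the whole lists, members of both MLP lists scored near or below them and the few MLP-F vs. C members above. The median score was 73.9 for the 22 MLP vs. C members and 77.4 for that list, 70.02 and 81.8 for MLP vs. MLP-F, and 85.2 and 69.4 for MLP-F vs. C. Scores of at least 100 were held by 7 of 22 MLP vs. C members (31.8%, against 31.1% of the list), by 9 of 32 MLP vs. MLP-F members (28.1% against 36.8%) and by 4 of 8 MLP-F vs. C members (50% against 19.1%). Scores under 60 were held by 31.8% of MLP vs. C members and 23.7% of that list, and by 40.6% and 21.9% for MLP vs. MLP-F. The median length was 840 bp for MLP vs. C members and 673.5 bp for that list, 734 and 727 bp for MLP vs. MLP-F, and 686 and 657 bp for MLP-F vs. C. Members cover 1.94% of the interval in MLP vs. C, 2.65% in MLP vs. MLP-F and 0.58% in MLP-F vs. C.

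**Figure D3:**
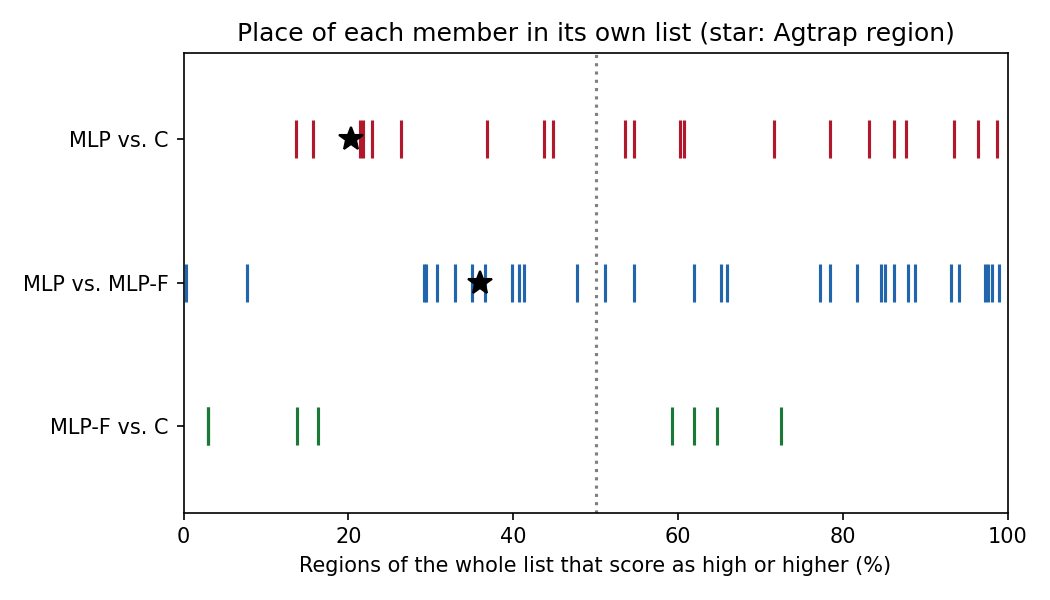
Percent of the whole list that scores as high as each member or higher, for the 3 comparisons, with a bar for each member and a star for the Agtrap region; the dotted line is the middle of a list. The Agtrap region is at 20.3% in MLP vs. C and 36.0% in MLP vs. MLP-F, and the MLP vs. MLP-F member at the far left is at 0.305%.

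The number of regions was set against 2695 tiles of 1 Mb on the placed chromosomes, laid in the same phase as the interval. With 32 MLP vs. MLP-F regions the interval stood high, since the tiles had a median of 10 and 4.01% of them had as many or more. On chromosome 5 alone, where the median over 172 tiles was 11, the share was 8.72%. Most of these 15 tiles, the interval among them, lie toward the higher-coordinate end of the chromosome, where the count reached 52. A count this high was therefore not particular to the Agtrap interval. Among regions with a score of at least 100 the share was 10.4% of all tiles. For MLP vs. C the 22 regions compared with a median of 11, and 17.6% of tiles had as many. The 8 MLP-F vs. C regions equalled the median of 8. The interval held 10 more MLP vs. MLP-F than MLP vs. C regions, a difference reached by 3.49% of all tiles and 6.98% of those on chromosome 5. Tiles are no replicates, and the content of CpG or genes in them was not tested.

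**Figure D4:**
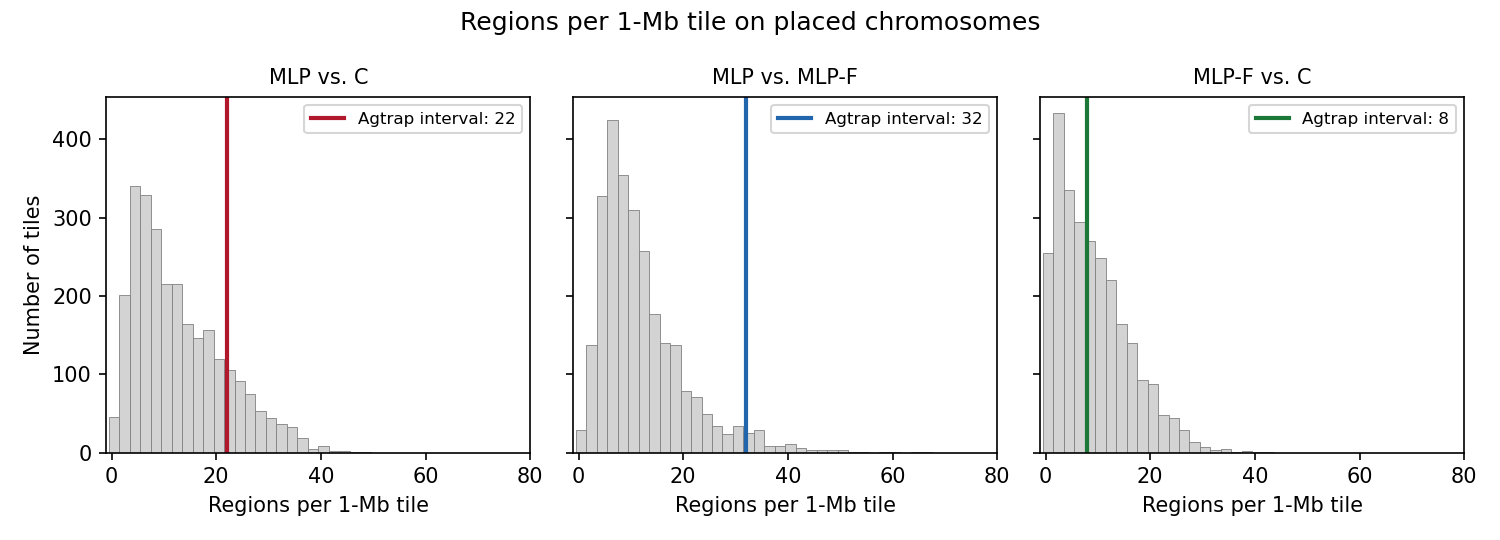
Number of 1-Mb tiles of the placed chromosomes (grey bars) by the regions each holds, for the 3 lists; the coloured line is the Agtrap interval. The interval has 22 MLP vs. C, 32 MLP vs. MLP-F and 8 MLP-F vs. C regions, where the tile medians are 11, 10 and 8.

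The interval is a chosen window. The first MLP vs. C member, with a score of 82.6, is 59880 bp inside, and the last region before it (164335386 to 164336057, score 251) is 313943 bp outside. At the other end the last MLP vs. C member (score 73.4) is 19834 bp inside and the next region (165674986 to 165675685, score 58.8) is 24986 bp outside. For MLP vs. MLP-F the members just inside scored 68.9 and 60.6 and the regions just outside 173 and 92.5. For MLP-F vs. C they scored 106 and 64.5 inside, and 119 and 174 outside. Both ends thus fall in gaps between regions.

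Of 21 genes of the renin-angiotensin system and of the salt and pressure hormones around it, the study's annotation names 2 for a listed region, Agtrap and Nr3c2, the mineralocorticoid receptor through which aldosterone acts. Agtrap is the gene the interval was chosen on, and the share over all genes was not computed, so nothing is read from this count. The annotation covers only regions that the authors selected, so for the other genes, such as Agt, Ace and Agtr1a, no count of regions can be given. The Nr3c2 region, also intronic (chromosome 19, 32824694 to 32825290), scored 122 in MLP vs. C, next to the 123 of Agtrap. An MLP-F vs. C region (score 146) overlaps it and no MLP vs. MLP-F region does, whereas the Agtrap region overlaps an MLP vs. MLP-F region and no MLP-F vs. C region. The 2 regions were thus close in score against C and differed in which second list holds them.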

How the data were processed

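Alignment to rn4 was done by the authors with Bowtie (the submitters' processing notes also name CASAVA), with 1 alignment retained per pair of reads, and MACS was then run on each library against another. The sources used here give no versions. Each deposited list holds the position and score of its regions, as the authors' run of MACS wrote them. Regions lower in the first library of a pair were not analysed here.

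Starts were converted to 1-based positions. Membership and presence in another list meant an overlap of at least 1 bp. Regions of equal score took the last place they span. Overlap, the joining of regions and a tile count were tested on simulated data. Genes named are Agtrap, those among 10 protein-coding neighbours on each side (RefSeq, GRCr8) that are reported here and renin-angiotensin genes in the study's annotation. Regions described singly are the Agtrap region, the 5 highest-scoring members of each list and the nearest on each side, and any others were picked with their values in view. The interval, members and gene list were chosen with earlier results of these data known. Alternatives were other score limits, lists of equal length, other widths, joined regions and other overlap rules. Python 3.11.15, numpy 2.4.6, pandas 2.3.3, SciPy 1.17.1 and matplotlib 3.10.9 were used.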

Additional observations from a re-analysis of the deposited data

How the results depend on the processing

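Of 71 alternative values, 49 stayed near the reported one (counts, places and tile shares within 1.5 times, shares of members within their interval) and 22 moved. The intervals of the shares are wide, so the 49 are no measure of stability for them. The share of MLP vs. C members in MLP-F vs. C, for example, went from 4.55% to 19.6% in 2 Mb and was still counted as near. Counts for MLP over C, MLP over MLP-F and MLP-F over C were 7, 9 and 4 with scores of at least 100, 12, 16 and 4 with at least 70, 12, 21 and 4 in 500 kb, and 51, 56 and 21 in 2 Mb. With the 20000 highest-scoring regions of each list they were 12, 15 and 8, so the excess of MLP vs. MLP-F over MLP vs. C regions narrowed. The share of MLP vs. C members also in MLP vs. MLP-F was 25% with scores of at least 70 and with lists of 20000. In 500 kb the share of MLP vs. C members in MLP-F vs. C was 0%, and the reverse share 0%. In 2 Mb they were 19.6% and 47.6%. The share of tiles with as many MLP vs. MLP-F regions was 8.72% on chromosome 5 and 10.4% with scores of at least 100, and for MLP-F vs. C it was 15.0% with scores of at least 100. The cause of these shifts was not tested. The place of the Agtrap region was between 20.2% and 21.1% in MLP vs. C and between 35.8% and 36.0% in MLP vs. MLP-F. No paired analysis was possible because each group is 1 library. Without read depth per region, small differences in score have no error.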

Other observations

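The MLP vs. MLP-F region at 165570694 to 165572409, with a score of 867, stood apart from the rest of the interval. Of the 103 regions of the MLP vs. MLP-F list that score as high or higher, 86 (83.5%) overlap an MLP vs. C region, and this region is among the other 17. Its nearest MLP-F vs. C region ends 10478 bp before it, with a score of 112. A repeat annotation or the sequence of the region was not used here. Widening the interval to 2 Mb brought the MLP-F vs. C regions that overlap an MLP vs. C region to 10 of 21 (47.6%), against 1 of 8 (12.5%) within the interval. The share over the whole list is 31.8%. The MLP vs. C regions that overlap an MLP vs. MLP-F region came to 18 of 51 (35.3%), against 10 of 22 (45.5%). Both are near the 39.4% of the whole list.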
